A study of Rattus norvegicus with 6 samples.

Results

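Genes of peroxisomal oxidation and peroxisome biogenesis were examined in the livers of rats dosed with o-anthranilic acid, an aromatic amino acid that animals form from tryptophan through kynurenine. The set held 31 genes chosen by symbol, of which 20 encode enzymes and transporters and 11 encode peroxins, the proteins that build the organelle. All 31 had at least 1 probe whose accession led to the gene, with 56 probes in all. For 30 of the 31, at least 1 probe was above background on all 3 arrays of a group and was tested, among 10257 genes tested on the array. The remaining gene was Abcd2.

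Total liver RNA from 6 male Sprague-Dawley (Crl:CD(SD)) rats, purchased at 5 weeks of age and kept on a basal diet, was hybridised to 6 single-colour arrays, 1 per rat. The 3 control rats were given corn oil, and the other 3 received a daily o-anthranilic acid dose of 1000 mg/kg/day. The labels do not say what carried the compound, and they disagree on the time: 1 label gives dosing for 9 weeks, and the series' design text gives measurement at 28 days. Every value below is a log2 signal relative to the array's 75th percentile, so that 0 marks the 75th percentile of all probes, and every difference is anthranilic acid minus corn oil on that log2 scale.

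Peroxisomes oxidise fatty acids that mitochondria handle poorly, such as very long, branched and dicarboxylic chains, and pass the shortened chains on to mitochondria as carnitine esters. Their oxidases hand electrons directly to oxygen and release hydrogen peroxide. In rodent liver the organelle and many of its oxidation enzymes are known for their induction by ligands of the nuclear receptor PPAR-alpha, whereas most peroxins serve the steady assembly of the organelle: Pex3, Pex16 and Pex19 place membrane proteins, Pex5 and Pex7 carry enzymes into the lumen, and the Pex11 proteins elongate and divide it.

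The arrays had broadly similar signals. On an array, 53.3% to 58.0% of the 61657 non-control probes passed the extraction software's test of signal well above background, and 0 spots were saturated. Of the hepatocyte markers, 10 of 10 were above background, including albumin (Alb) and transthyretin (Ttr). Their summed linear signal, in multiples of the 75th percentile, was 4760 to 4859 on corn oil arrays and 4441 to 4550 on treated arrays. By gene, 8 of them were below 0 in difference, while Cps1 (0.09) and Ass1 (0.12) were above. Hnf4a was below 0 at its brightest probe (-0.14) and above 0 at its other probes (0.18 and 0.16). Lymphocyte markers were tested for 4 of 6 genes, all 4 above 0 in difference, with a summed signal of 0.910 to 1.10 in corn oil and 1.70 to 1.80 in treated livers. Within that list Cd3e was below the filter and Ms4a1 had no matched probe. The hepatocyte and lymphocyte sums were thus apart between the groups. So was that of pancreas and kidney markers, at 0.358 to 0.451 in corn oil and 0.327 to 0.347 in treated livers. Of that list 1 of 6 genes, Ctrb1, was tested. The neutrophil and erythroid sums overlapped, though all their tested markers were above 0 in difference. The part of such marker differences in the values below was not tested. Kupffer cell markers had overlapping summed signals of 76.7 to 101 in corn oil and 60.6 to 90.6 in treated livers, though all 6 were below 0 in difference. In bulk liver, fewer cells of a type and less RNA per cell cannot be told apart. The third treated array lay on a second slide scanned separately, while the other 5 shared a slide and a scan. It had the lowest share of probes well above background (53.3%). Its 75th percentile was also the lowest, at 489 against 503 to 523 on the other arrays. No control array lay on the second slide.

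Anthranilic acid was not followed by a change in any peroxisomal gene that passed the test. With limma and Benjamini-Hochberg adjustment over 33428 probes, 0 of 30 members passed an adjusted p of 0.05, against 0% of all genes tested and 0.0329% of all probes (11 probes), and the smallest adjusted p among members was 0.283. At an unadjusted p under 0.05 there were 4 members (13.3%), against a background of 11.6% of all genes: Phyh, Crot and Abcd3 lower and Dao higher in treated livers. The background was 6.15% of genes lower and 5.47% higher. The count of 4 became 2 without corn oil replicate 1 or without anthranilic acid replicate 1, and 7 without corn oil replicate 3. The treated and control arrays were fully apart for 4 members (13.3%), namely Phyh, Abcd3 and Acaa1a below and Dao above the corn oil arrays, against a background of 19.8% (9.13% lower and 10.7% higher). On both counts the share of members was thus near to or below that of all genes. By class, the 4 at an unadjusted p under 0.05 were all among the 19 enzymes and transporters (21.1%) and 0 among the 11 biogenesis genes, a contrast that was not tested.

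**Figure D1:**
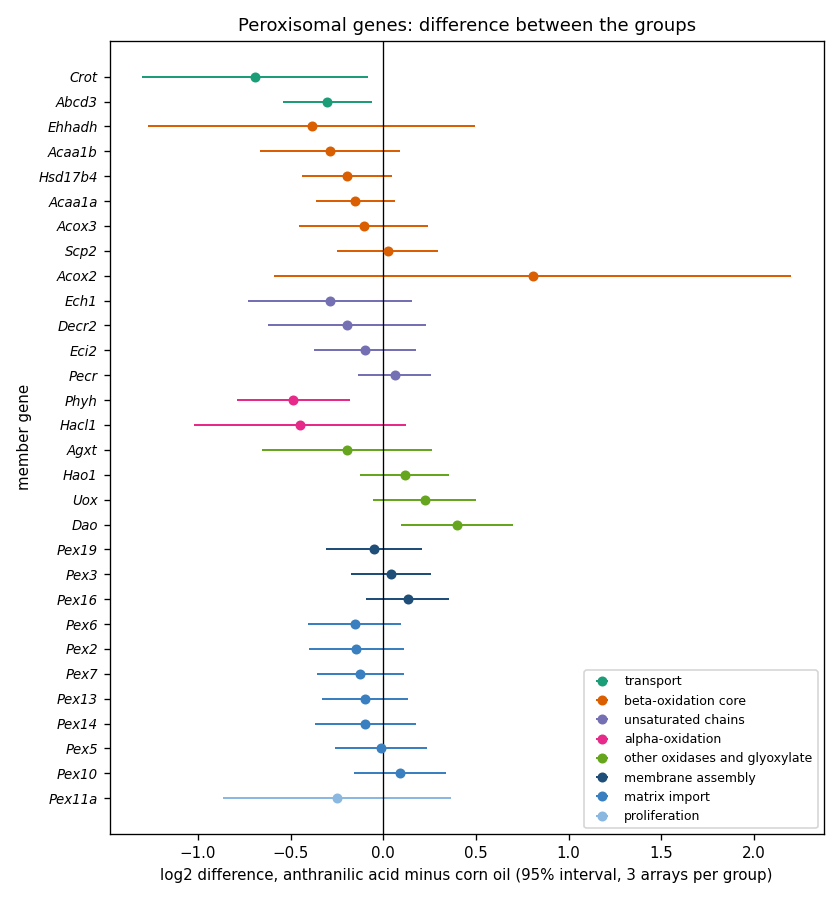
Difference between the groups for the 30 tested members (x axis, log2, anthranilic acid minus corn oil, 3 arrays per group), by role. Points are the fitted differences and bars their 95% intervals from limma. The intervals of Crot, Abcd3 and Phyh lie below 0 and that of Dao above it, all before adjustment. The widest is that of Acox2, from -0.59 to 2.20.

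Substrates enter through ABC transporters and leave through carnitine esters. Abcd3 (PMP70), the transporter of branched and dicarboxylic acyl-CoA, had signals of 7.10, 6.86 and 7.09 in corn oil replicates 1 to 3 and of 6.66, 6.73 and 6.77 in treated replicates 1 to 3. Each treated value lay below each control value, and the difference was -0.30 (SE 0.10, unadjusted p = 0.0217, limma adjusted p = 0.353), or 1.23-fold. Crot, the carnitine octanoyltransferase that prepares shortened chains for export, stood at 6.55, 6.38 and 5.93 in corn oil and at 5.15, 5.97 and 5.67 in treated livers. The groups overlapped slightly, since treated replicate 2 was above corn oil replicate 3. The Crot difference was -0.69 (SE 0.25, limma adjusted p = 0.383), the lowest among the members, and -0.47 without anthranilic acid replicate 1. Abcd2, a relative of Abcd3 that carries very long chains, was not well above background on any corn oil array and was so on 1 treated array at each of its 2 probes. It was not tested.

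Phyh and Hacl1 encode successive enzymes of alpha-oxidation, the removal of a single carbon from phytanic acid, a branched fatty acid of the diet. Phyh, the phytanoyl-CoA hydroxylase, gave 5.71, 5.52 and 5.35 in corn oil and 4.90, 5.05 and 5.17 in treated livers. The groups were apart at both of its probes, with differences of -0.49 at each and the smallest p among the members (SE 0.13, unadjusted p = 0.00766, limma adjusted p = 0.283). Its unadjusted p was under 0.05 in 17 of 17 alternative analyses, and its adjusted p ranged from 0.155 to 0.581 over them. The same count was 15 for Dao, 14 for Abcd3 and 12 for Crot. These alternatives reuse the same 6 arrays, so they are not independent of the main fit. Hacl1, the lyase that cleaves the hydroxylated chain, was at 7.48, 7.38 and 6.87 in corn oil and at 7.06, 6.38 and 6.94 in treated livers. Its difference was -0.45 (SE 0.24, limma adjusted p = 0.475), and its 4 probes gave -0.47 to -0.41. The lowest value was that of treated replicate 2, without which the difference was -0.24.

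Dao, the D-amino acid oxidase, was the single member above 0 with an unadjusted p under 0.05. Its signals were 1.91, 1.68 and 1.47 in corn oil and 2.07, 2.07 and 2.12 in treated livers, so that the treated arrays lay close together above all 3 controls. The difference was 0.40 (SE 0.13, unadjusted p = 0.0183, limma adjusted p = 0.340). Uox, the urate oxidase of the peroxisome core, was at 0.22 (SE 0.12, limma adjusted p = 0.468), and Hao1, the glycolate oxidase, at 0.12 (SE 0.10). Agxt, the transaminase that removes the glyoxylate made by Hao1, was at -0.20 (SE 0.19), with both probes below 0. It ran from -0.33 without anthranilic acid replicate 3 to -0.028 without anthranilic acid replicate 1. Of these 4 genes, which act mainly on amino acids, urate, glycolate and glyoxylate, 3 had differences above 0.

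Promoter sequence was read for the 4 members with an unadjusted p under 0.05, as the 250 bases upstream of the annotated start in RefSeq (build GRCr8), 5′ to 3′ on the strand of the gene. Capitals mark GC boxes, which read GGGCGG, boxes of the letters CCAAT, and half-sites of nuclear receptors, which read AGGTCA, each searched on both strands. Abcd3 is on the minus strand at chr2:212590380-212590629, Crot on the plus strand at chr4:26052874-26053123, Phyh on the minus strand at chr17:78255646-78255895 and Dao on the minus strand at chr12:48273301-48273550.
Abcd3: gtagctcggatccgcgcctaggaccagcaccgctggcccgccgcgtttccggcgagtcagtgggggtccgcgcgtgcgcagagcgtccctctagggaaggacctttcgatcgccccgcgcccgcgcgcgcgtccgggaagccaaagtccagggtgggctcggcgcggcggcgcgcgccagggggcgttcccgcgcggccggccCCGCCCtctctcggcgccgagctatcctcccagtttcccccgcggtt
Crot: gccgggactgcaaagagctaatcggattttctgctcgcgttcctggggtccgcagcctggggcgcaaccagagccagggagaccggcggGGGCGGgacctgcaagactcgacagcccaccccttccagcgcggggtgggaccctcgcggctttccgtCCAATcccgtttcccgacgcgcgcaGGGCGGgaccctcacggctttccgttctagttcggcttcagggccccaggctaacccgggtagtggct
Phyh: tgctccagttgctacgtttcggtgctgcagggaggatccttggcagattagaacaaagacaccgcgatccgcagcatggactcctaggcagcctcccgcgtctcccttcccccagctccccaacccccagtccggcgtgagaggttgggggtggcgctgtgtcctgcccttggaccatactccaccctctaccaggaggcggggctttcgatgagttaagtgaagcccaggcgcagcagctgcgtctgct
Dao: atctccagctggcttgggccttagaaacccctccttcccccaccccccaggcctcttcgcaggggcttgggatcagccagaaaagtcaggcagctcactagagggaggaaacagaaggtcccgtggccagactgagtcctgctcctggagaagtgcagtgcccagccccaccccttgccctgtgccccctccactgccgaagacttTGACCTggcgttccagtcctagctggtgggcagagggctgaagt
The Abcd3 and Crot windows held 42 and 25 CpG dinucleotides and 1 and 2 GC boxes, and Crot also 1 CCAAT box. Phyh had 14 CpG and none of the motifs, and Dao had 4 CpG and 1 half-site.

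Across the set, windows were found for 28 of the 31 members (29 windows, since Agxt has 2). A GC box was present in 11 of 20 windows of enzymes and transporters (55%) and in 7 of 9 windows of biogenesis genes (77.8%), against 30.5% of all 33469 windows in the table. The median count of CpG was 11 and 14, against 5 over all windows. The half-site was present in 4 enzyme windows and in 0 biogenesis windows, against 14.1% of all windows, and the TATA box (TATAAA) in 1 member window, that of Pex14, against 12.9%. The direct repeat DR1, in which a single base of any kind parts a pair of such half-sites and which is the form bound by PPAR-alpha with RXR, was searched as an exact match. It was in 0 of the 29 windows and in 0.0508% of all windows, a share too low for 29 windows to show a lack of such sites. These are matches of letters in a short window, given as a description.

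The core of peroxisomal beta-oxidation consists of an oxidase, a multifunctional enzyme that hydrates and dehydrogenates the chain, and a thiolase. Of its 7 members, 5 had differences below 0 and none passed, with a median of -0.15. Hsd17b4, the D-specific multifunctional enzyme needed for branched chains and bile acid precursors, was at 7.20, 7.17 and 6.97 in corn oil and at 6.87, 7.01 and 6.87 in treated livers. Treated replicate 2 lay above corn oil replicate 3, and the difference was -0.20 (SE 0.10, limma adjusted p = 0.465). The thiolases Acaa1a and Acaa1b, close copies of each other whose signals the probes may not separate fully, were at -0.15 (SE 0.09) and -0.29 (SE 0.16), with all 6 of their probes below 0. Acaa1b was at -0.15 without corn oil replicate 1 and at -0.44 without corn oil replicate 3. At the brightest Acaa1a probe the treated arrays lay below all 3 controls (limma adjusted p = 0.517), while at its other probes the groups overlapped. Scp2, whose longer product is the thiolase for branched chains, was at 0.02 (95% interval -0.25 to 0.30). The oxidase Acox3 was at -0.11 (SE 0.14).

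In the core, 2 further members each rested on a single array, and they are named for that after their values were seen. Ehhadh, the L-specific multifunctional enzyme and a known PPAR-alpha target, stood at 6.08 in corn oil replicate 1, against 4.83 and 4.68 in the other controls and 4.93, 4.79 and 4.72 in treated livers. Corn oil replicate 1 was thus 2.51-fold above the other controls, while those and the treated arrays ran together. The Ehhadh difference of -0.39 (SE 0.36, limma adjusted p = 0.684) became 0.06 without corn oil replicate 1. Acox2, an oxidase of bile acid precursors, stood at 5.39 in treated replicate 2. The other treated livers were at 3.20 and 3.38, and the controls at 2.89, 3.29 and 3.37. The Acox2 difference of 0.81 (SE 0.58, limma adjusted p = 0.586) became 0.11 without anthranilic acid replicate 2.

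**Figure D2:**
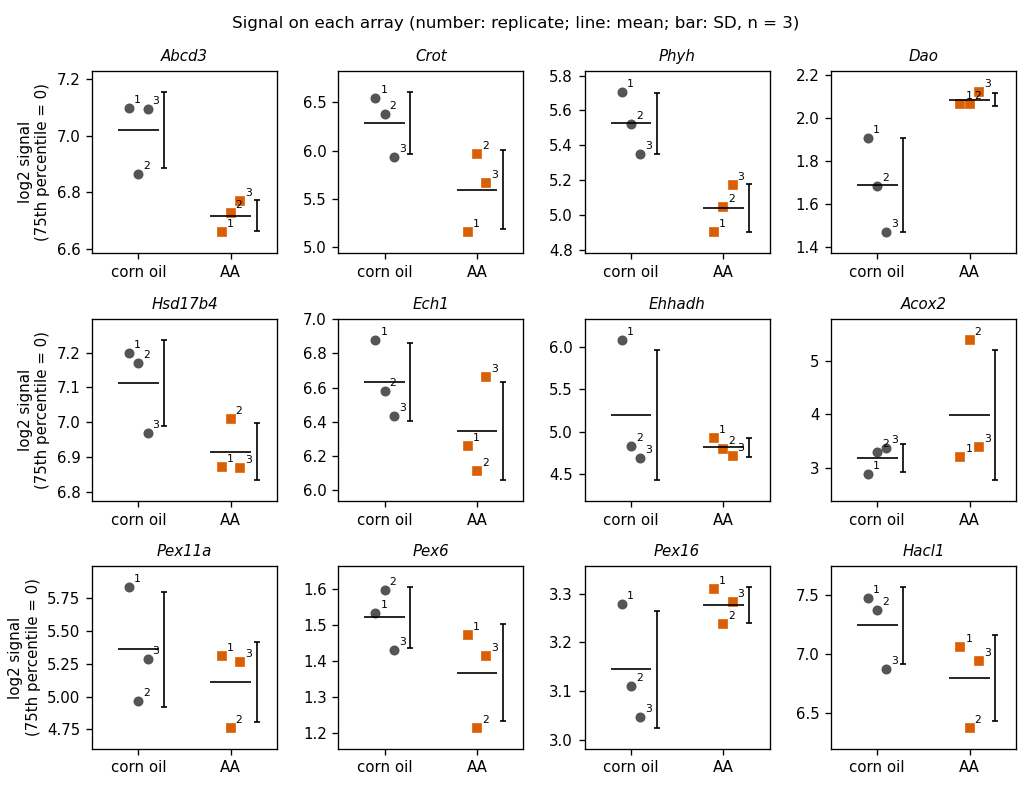
Log2 signal (y axis, 0 is the array's 75th percentile) on each array for 12 members, with corn oil as circles and anthranilic acid (AA) as squares. Numbers give the replicate, lines the group mean and bars the SD (n = 3), and each panel has its own y range. The groups are apart for Abcd3, Phyh and Dao, and 1 array stands away from the other 5 for Ehhadh (corn oil 1) and Acox2 (AA 2).

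Unsaturated chains need auxiliary enzymes before they can pass through the core. Of these 4 members, 3 were below 0 and none passed, with a median of -0.15. Ech1, a dienoyl-CoA isomerase, was at 6.88, 6.58 and 6.44 in corn oil and at 6.26, 6.11 and 6.66 in treated livers, where treated replicate 3 lay among the controls. The Ech1 difference was -0.29 (SE 0.18, limma adjusted p = 0.545), with -0.45 without anthranilic acid replicate 3 or with slide as a block, -0.17 without anthranilic acid replicate 2 and -0.16 without corn oil replicate 1. Decr2, the peroxisomal dienoyl-CoA reductase, was at -0.20 (SE 0.18), and at -0.035 without corn oil replicate 1 and -0.35 without corn oil replicate 3. Eci2, an enoyl-CoA isomerase, was at -0.10 (SE 0.11), and Pecr, the trans-2-enoyl-CoA reductase, at 0.06 (SE 0.08).

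The peroxins stood closer to 0. None of the 11 passed at an unadjusted p under 0.05, and for 0 of 11 were the groups apart, against the background of 19.8%. All 11 differed by less than 0.25, and their 95% intervals reached from -0.87 to 0.37, with 10 of the 11 intervals inside -0.5 to 0.5. Of the membrane assembly genes, Pex16 was at 3.28, 3.11 and 3.05 in corn oil and at 3.31, 3.24 and 3.28 in treated livers, a difference of 0.13 (SE 0.09, limma adjusted p = 0.585) with corn oil replicate 1 inside the treated range. Pex3 was at 0.04 (SE 0.09) and Pex19, the carrier of newly made membrane proteins, at -0.05 (SE 0.11). All 7 Pex19 probes lay below 0, from -0.20 to -0.02.

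Matrix import had 6 of 7 members below 0, with a median of -0.10. Pex6, a subunit of the ATPase that pulls the import receptor back out of the membrane, had the smallest p of the group. Its signals were 1.53, 1.60 and 1.43 in corn oil and 1.47, 1.21 and 1.41 in treated livers, and the difference was -0.15 (SE 0.10, limma adjusted p = 0.564), and -0.078 without anthranilic acid replicate 2. Treated replicate 1 lay within the range of the controls. The import receptors Pex5 and Pex7 stood at -0.01 (95% interval -0.26 to 0.24) and -0.12 (SE 0.10), the docking proteins Pex13 and Pex14 at -0.10 each, and the RING-finger ubiquitin ligases Pex2 and Pex10 at -0.15 and 0.09. The probes of Pex10 differed in sign (0.09 and -0.02). It was the single gene with such a split among the 12 members with more than 1 tested probe.

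Pex11a, which promotes elongation and division of peroxisomes and is a known PPAR-alpha target, varied most of the peroxins. It stood at 5.83, 4.96 and 5.29 in corn oil and at 5.31, 4.76 and 5.26 in treated livers. Corn oil replicate 1 was the highest and treated replicate 2 the lowest, and at all 3 Pex11a probes corn oil replicate 1 was above the mean of the other controls, by 0.65 to 0.84. The difference was -0.25 (SE 0.25, limma adjusted p = 0.708), and -0.015 without corn oil replicate 1.

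Set against each other, enzymes and transporters had a median difference of -0.20 over 19 genes (13 below 0), and biogenesis genes a median of -0.10 over 11 genes (8 below 0), against 0.01 over all genes. Together 21 of 30 members (70%) were below 0, against 48% of all genes. The enzymes were also more spread out, from -0.69 to 0.81, where the biogenesis genes ran from -0.25 to 0.13. The upper end was Acox2, at 0.11 without anthranilic acid replicate 2. The control rats also varied more for enzymes, with a median range of 0.35 against 0.23 for biogenesis genes. The median size of the difference, whatever its sign, was 0.22 for enzymes, 0.10 for biogenesis genes and 0.13 for all genes. All 11 biogenesis genes but 10 of the 19 enzymes differed by less than 0.25, as did 75.4% of all genes. The medians of the classes differed by -0.10, which became -0.028 without corn oil replicate 2, -0.035 without anthranilic acid replicate 1 and -0.15 with array weights. The biogenesis median was -0.02 without corn oil replicate 1, -0.04 without anthranilic acid replicate 2 and -0.05 with normexp background correction, while the enzyme median was -0.12 without corn oil replicate 2.

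**Figure D3:**
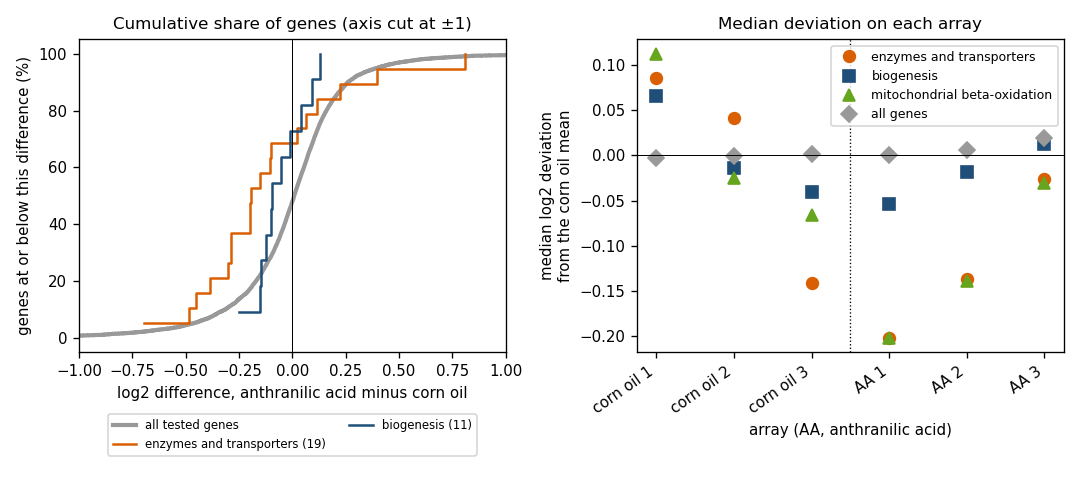
Left, cumulative share of genes (y axis, percent) by log2 difference (x axis, cut at 1 in either direction) for all 10257 genes, 19 enzymes and transporters and 11 biogenesis genes. Right, the median log2 deviation from the corn oil mean on each array for these classes and for mitochondrial beta-oxidation. The enzyme curve lies left of that of all genes over most of its range, and on the right the enzyme medians of the groups overlap.

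By array, the median deviation of the enzymes from their corn oil means was 0.09, 0.04 and -0.14 in corn oil replicates 1 to 3 and -0.20, -0.14 and -0.03 in treated replicates 1 to 3. The groups overlapped, as corn oil replicate 3 lay at the level of treated replicate 2 and below treated replicate 3. Biogenesis genes were at 0.07, -0.01 and -0.04 in corn oil and at -0.05, -0.02 and 0.01 in treated livers, also overlapping. Of the 30 members, 15 had their highest value in corn oil replicate 1, and 17 had their lowest control value in corn oil replicate 3. For 23 of the 30, the range among the 3 control rats exceeded the difference between the groups. This held for 14 of the 19 enzymes and 9 of the 11 biogenesis genes. The same counts were not made over all genes, so they are not given as traits of the members.

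**Figure D4:**
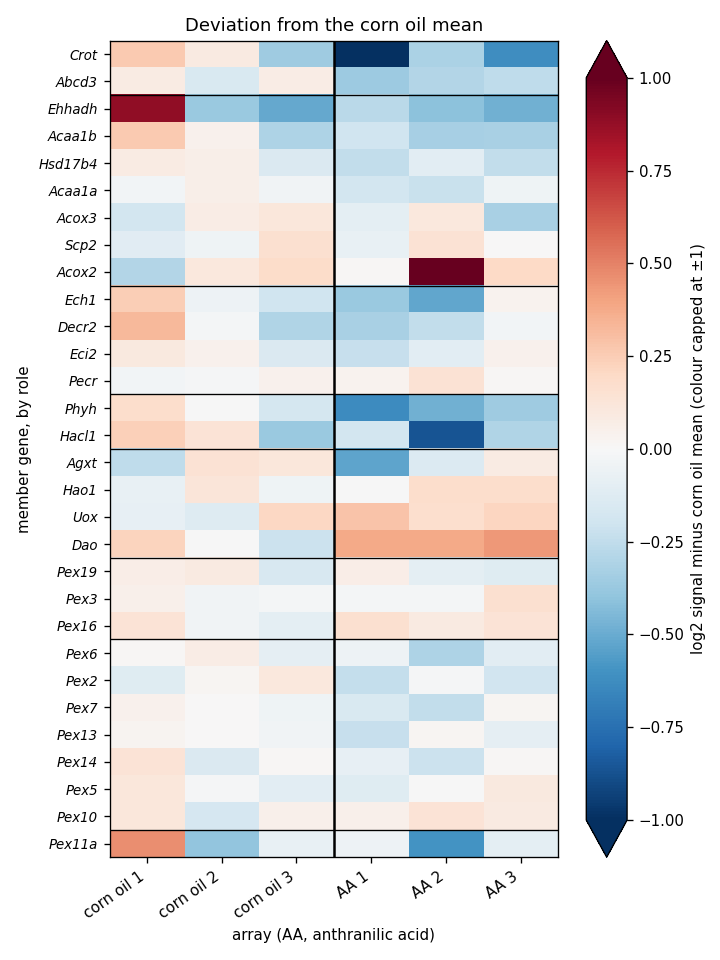
Log2 deviation of each tested member (rows, by role) from its own corn oil mean on each of the 6 arrays (columns; AA, anthranilic acid), with the colour capped at 1 in either direction. Corn oil 1 is red for Ehhadh and Pex11a, AA 2 is red for Acox2, and all 3 AA columns are blue for Phyh, Crot and Abcd3 and red for Dao.

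Pairs of members with related roles were compared as the log2 ratio of the pair within each array, using an exact permutation test over the 6 arrays (two-sided), for which 3 against 3 allows no p below 0.1. Of 6 pairs that could be tested, the groups were apart for 1, Acox3 over Acox2, with a shift of -0.91 (exact p = 0.1, adjusted over the 6 pairs 0.45). It rested largely on the high Acox2 signal above and was -0.32 without anthranilic acid replicate 2. Ehhadh over Hsd17b4 shifted by -0.19, Acaa1a over Scp2 by -0.17, Acaa1b over Acaa1a by -0.14, Pex5 over Pex7 by 0.11 and Dao over Hao1 by 0.28. All 5 of these overlapped between the groups, with exact p from 0.2 to 1.

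A further list of 44 peroxisomal genes was tested for 39. By limma 0 of 39 passed, and 2 lower and 3 higher had an unadjusted p under 0.05 (12.8%, against 11.6% of all genes), with a median difference of -0.07. The count of 5 became 1 without corn oil replicate 1 and 2 without corn oil replicate 2 or anthranilic acid replicate 2, and the median became -0.01 without anthranilic acid replicate 1. The lower genes with the smallest p were the carnitine acetyltransferase Crat (-0.44, SE 0.16), the membrane protein Pxmp4 (-0.36, SE 0.13) and Agps, an enzyme of ether lipid synthesis (-0.20, SE 0.08). The higher ones were Nudt19, a hydrolase of coenzyme A (0.41, SE 0.12), the pipecolic acid and sarcosine oxidase Pipox (0.49, SE 0.16) and the isocitrate dehydrogenase Idh1 (0.33, SE 0.11). Their limma adjusted p ran from 0.308 to 0.408.

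Mitochondrial beta-oxidation, the pathway that finishes the chains, was measured for 17 of 17 genes. Its median was -0.15 with 12 genes below 0 (70.6%, against 48% of all genes). By limma 0 passed, and 2 had an unadjusted p under 0.05 (11.8%, against 11.6% of all genes). The lower genes with the smallest p were the acyl-CoA dehydrogenase Acadm (-0.26, SE 0.10), the thiolase Acaa2 (-0.25, SE 0.10) and the carnitine carrier Slc25a20 (-0.22, SE 0.12), and the higher ones the hydratase Echs1 (0.24, SE 0.11), the reductase Decr1 (0.11) and Etfdh (0.04), which passes electrons to the respiratory chain. The median on each array was 0.11, -0.03 and -0.07 in corn oil and -0.20, -0.14 and -0.03 in treated livers. It was -0.074 without anthranilic acid replicate 1, -0.075 without corn oil replicate 1 and -0.094 without anthranilic acid replicate 2. For PPAR-alpha targets outside peroxisomes, a list whose direction earlier results of these data had shown, 14 of 15 were below 0 (93.3%, against 48% of all genes) with a median of -0.43. By limma 0 passed, and 4 were lower at an unadjusted p under 0.05 (26.7%, against 6.15% of all genes). Plin2, which coats lipid droplets, was at -0.47 (SE 0.12), the transcription factor Creb3l3 at -0.32 (SE 0.09) and the lipase inhibitor Angptl4 at -0.43 (SE 0.12), with adjusted p of 0.268 to 0.302, whereas Cyp4a1, a fatty acid omega-hydroxylase, was at 0.04 (SE 0.15).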

How the data were processed

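Per the file headers, spot intensity was extracted with Agilent Feature Extraction 10.7.1.1 (10.7 in the submitters' processing notes), which subtracted background and removed spatial trends. The authors' deposited intensity values carry no scaling between arrays. The headers name rn4, so probes carry no coordinates here. The deposited series table holds a ratio of that signal to 1 value per array, within 0.0355% to 0.126% of the 75th percentile, and served as an alternative. The sources used here do not say how the authors chose it.

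The log2 signal minus the 75th percentile was compared with limma 3.58.1 in R 4.3.3 (3 rats per group, 4 residual degrees of freedom, two-sided), and p was adjusted over 33428 probes well above background on all arrays of a group. The number of arrays limits the precision. All adjusted p-values are from limma, except that of the pairs, which comes from the exact permutation test. Accessions were named through RefSeq (GRCr8), which matched 27460 of 61657 probes. A gene was represented by its brightest tested probe. The 14 outlier spots were left out. The fit was also run on simulated data with independent noise at each probe. Such data hold no slide effect and no variation shared between genes.

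Members and lists were chosen with earlier results of these data known. All 31 members are named, with values per array for those at an unadjusted p under 0.05 and otherwise for the smallest p in a role group, and for Ehhadh, Acox2 and Hacl1, chosen after their values were seen. Other lists give, for each direction, their 3 genes of smallest p. Alternatives covered scaling, background correction, the filter, the variance model, slide, replicate number, the choice of probe and leaving out each array.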

Additional observations from a re-analysis of the deposited data

How the results depend on the processing

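Over 17 alternatives, 0 members and 0 of the further peroxisomal genes passed an adjusted p of 0.05, and the enzyme and transporter median stayed below 0 (-0.22 to -0.12). Members at an unadjusted p under 0.05 numbered 2 to 7 when 1 array was left out, and further peroxisomal genes 1 to 6. Leaving out 1 array gave biogenesis medians of -0.11 to -0.019, further peroxisomal medians of -0.081 to -0.012 and PPAR-alpha target medians of -0.54 to -0.43. Normexp background correction gave a biogenesis median of -0.045. Of 510 member differences under alternatives, 11 changed sign, in 6 genes. With 1 array left out, Ehhadh ran from -0.64 to 0.056, Scp2 from -0.038 to 0.11, Pex5 from -0.066 to 0.046, Acox3 from -0.21 to 0.0031 and Pex3 from -0.018 to 0.069, the ratio of Ehhadh to Hsd17b4 from -0.40 to 0.21 and that of Acaa1b to Acaa1a from -0.28 to 0.011. Pecr was at -0.039 with quantile normalization and Pex5 at 0.0014 with median centring. With slide as a block, which uses the same comparison as leaving out the array on the second slide, Acox3 was at 0.0031 and Pex3 at -0.018. The cause of these changes was not tested.

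Replicate numbers are shared by the groups. In deviations from the group means, arrays with the same number correlated at r = 0.07, -0.05 and -0.04 over probes. Arrays with different numbers ranged from -0.13 to 0.16. With 3 arrays per group, these values cannot decide whether the numbers pair the rats. The main fit did not use the numbers. With the replicate block, 4 members had an unadjusted p under 0.05, and Phyh had a limma adjusted p of 0.455. With 3 rats per group, differences of the size seen in most members could not be told from the spread between rats.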
